A study of Mus musculus with 6 samples.

Results

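The genes described here make up the signalling route of transforming growth factor beta (TGF-beta), bone morphogenetic proteins (BMP), activins and Smad proteins, read in hippocampal RNA of p300+/- mice, which are heterozygous for a p300 deficiency, and of wild-type littermates. A list of 40 genes was used, with ligands, antagonists, receptors, Smads, regulators of Smads and Id target genes. Its members are the probe sets whose annotation gives exactly 1 gene symbol, that symbol being in the list. This gave 91 probe sets for 39 genes, out of 45037 probe sets tested. Bmp3 had no probe set with a single symbol in the annotation used here. All animals were C57BL/6 females of 3 months. Each of the 6 Affymetrix Mouse Genome 430 2.0 arrays read RNA pooled from 4 animals, with 3 arrays per genotype, and the labels call the pools independent biological replicates. The labels do not say how the p300 allele was disrupted or in which cells p300 is lowered, and the wild-type pools carry no allele or agent.

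TGF-beta family ligands are secreted dimers that bring together type I and type II receptor kinases. The activated type I receptor phosphorylates Smad proteins, Smad2 and Smad3 for TGF-beta and activin and Smad1 and Smad5 for BMP, which join Smad4, enter the nucleus and recruit coactivators, among them p300 and its relative CBP. In the adult hippocampus BMP signalling holds neural stem cells of the dentate gyrus in a quiet state and noggin opposes it, while TGF-beta is made mainly by glia and vessel cells.

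Each value is a log2 intensity relative to the median of that probe set over the 6 arrays, so 0 is the middle of the arrays, and levels of different genes cannot be compared. A coarse level class could be read from the number format. By it 33 member probe sets lay in the brightest class (log2 of 8 to 16), 55 in the class from 4 to 8 and 3 in the dimmest class (2 to 4), namely 1 probe set each of Bmpr1b, Bmp7 and Tgfbr2. Of 15 marker genes of hippocampal neurons 13 had a probe set in the brightest class. Ep300, the gene that encodes p300, lay at -0.26, -0.22 and -0.50 in p300+/- 1, 2 and 3 and at 0.22, 0.38 and 0.40 in wild-type 1, 2 and 3. All p300+/- arrays were below all wild-type arrays, and the log2 fold change was -0.66 ± 0.13 (SE; limma, adjusted p = 0.9999), a difference that did not pass. Where this probe set lies relative to the disrupted part of the gene was not determined. Among the arrays, p300+/- 3 and wild-type 2 stood apart from the other 4 in the same direction. Over all probe sets the deviations of these arrays from their genotype means correlated at 0.65, beside 0.61 for p300+/- 1 and wild-type 1. Deviations within a genotype sum to 0, so such correlations depend on one another. The labels give p300+/- 3 and wild-type 2 nothing in common. They were the 2 lowest or the 2 highest arrays in 37.1% of all probe sets and in 38.5% of the members (35 of 91). Of the 91 log2 fold changes of the members, 26 changed sign without wild-type 2, 16 without p300+/- 3 and 19 without both. Values without an array are given for members whose description turns on it, and the other members carry the same limit.

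No gene of the TGF-beta, BMP and Smad route differed between genotypes past the test. Of the 91 probe sets 50 had higher and 41 had lower values in p300+/- pools. None passed the adjusted threshold of 0.05 (limma with Benjamini-Hochberg adjustment over 45037 probe sets, smallest adjusted p 0.9999), where the background over all probe sets was 0%. At an unadjusted p under 0.05 there were again 0 members, against 1.22% of all probe sets (0.77% higher and 0.451% lower). The genotypes did not overlap in 3 members (3.3%), against 5.39% of all probe sets, with 1 higher in p300+/- (background 3.19%) and 2 lower (background 2.2%), so the members held no larger share than the whole array. The counts past the adjusted threshold stayed 0 without p300+/- 3, without wild-type 2 and without both.

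The size of the differences was small for most of the route. Log2 fold changes ran from -0.28 for a Tgfb2 probe set to 0.45 for a Tgfbr1 probe set, with a median of 0.021, beside a median of 0.0057 over all probe sets. The median absolute log2 fold change was 0.091 in the members and 0.089 over all probe sets. The median 95% interval reached 0.40 to either side, and the interval excluded a 2-fold difference in either direction for 86 of the 91 (94.5%, and 95.5% of all probe sets). A 1.5-fold difference was excluded for 58 of them (63.7%, against 74.2% of all probe sets). The 5 intervals that reached a 2-fold difference belonged to Tgfb2 (1423250_a_at and 1450923_at), Tgfbr1 (1420894_at), Smad3 (1450472_s_at) and Ski (1429192_at), each of them with wide differences between pools of 1 genotype. RNA from whole tissue cannot tell fewer cells of a type from less RNA per cell. With 3 arrays on either side, 0.1 is the smallest two-sided p of an exact permutation test.

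**Figure D1:**
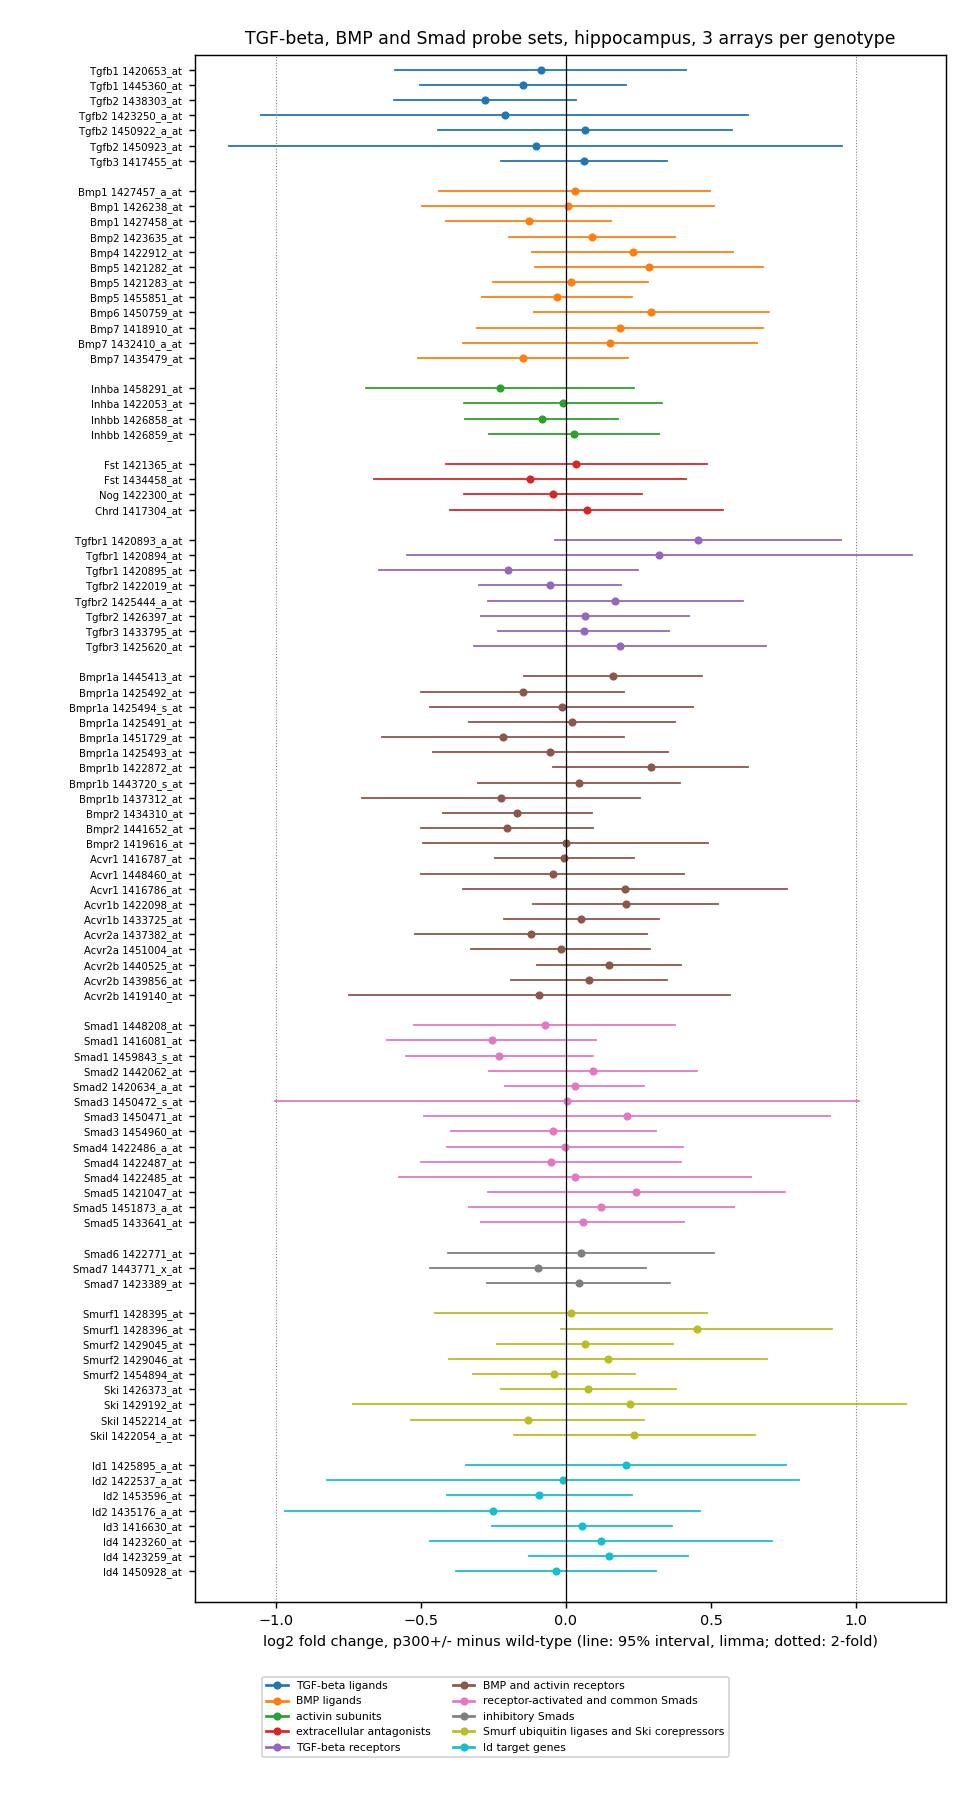
Log2 fold change of each of the 91 probe sets (x axis, p300+/- minus wild-type; y axis, gene and probe set, coloured by role), with points for the estimate and lines for the 95% interval from limma over 3 arrays per genotype. Every interval contains 0, and only 5 of them reach the dotted lines at a 2-fold difference.

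**Figure D2:**
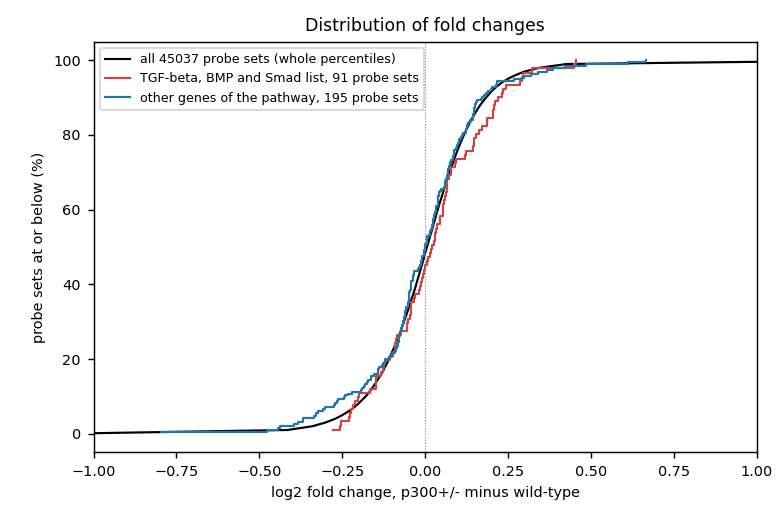
Cumulative share of probe sets (y axis, %) at or below each log2 fold change (x axis, p300+/- minus wild-type) for all 45037 probe sets, the 91 members and 195 probe sets of other genes of the pathway; values beyond 1 on either side are not drawn. The curves cross 50% near 0, at medians of 0.0057, 0.021 and -0.00097.

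The TGF-beta ligands leaned to lower values without passing. Of 7 probe sets of Tgfb1, Tgfb2 and Tgfb3, 5 were lower in p300+/-, with a median log2 fold change of -0.10. The Tgfb2 probe set with the smallest p of the group (1438303_at) lay at -0.32, 0.014 and -0.21 in p300+/- 1, 2 and 3 and at -0.014, 0.098 and 0.23 in wild-type 1, 2 and 3. Most p300+/- values were low, but p300+/- 2 lay within the wild-type range. The log2 fold change was -0.28 ± 0.13 (SE; unadjusted p = 0.0751, adjusted p = 0.9999, limma), with a 95% interval of -0.59 to 0.036. Tgfb2, whose product is the TGF-beta form best known from neurons and glia in development, was read by 3 other probe sets, of which the brightest pair had low values in p300+/- 3 and wild-type 2. They were at -0.066, 0.27 and -1.10 (1450923_at) and 0.083, -0.083 and -0.88 (1423250_a_at) in p300+/- 1, 2 and 3. In wild-type 1, 2 and 3 they were at 0.066, -1.05 and 0.40 and at 0.27, -0.81 and 0.29. Thus p300+/- 3 and wild-type 2 were the low arrays in both, by about 1 log2 unit, and the genotypes overlapped widely. The log2 fold changes were -0.10 ± 0.45 and -0.21 ± 0.36 (SE). Without these arrays the first of them was at -0.13 and the second at -0.28, while the second was at -0.58 without wild-type 2 alone and at 0.081 without p300+/- 3 alone. The remaining probe set (1450922_a_at) gave 0.065 ± 0.22. Tgfb1, the form made by microglia and platelets, gave -0.087 ± 0.21 and -0.15 ± 0.15, and Tgfb3 gave 0.061 ± 0.12.

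The stretch before the start of Tgfb2 is printed because this ligand had the widest spread over the arrays among the ligands, beside the stretches before the start of Id2, Id3 and Id4, genes that BMP-activated Smads switch on. The letters are the 250 bases upstream of the annotated start in RefSeq (GRCm38.p6), 5′ to 3′ along the gene. Capitals mark CAGAC or its reverse complement in Tgfb2 and Id3, a form of the box that Smad3 and Smad4 bind, and GGCGCC in Id2 and Id4, a GC-rich element of BMP-responsive genes.
Tgfb2, chr1:186705990-186706239 (- strand): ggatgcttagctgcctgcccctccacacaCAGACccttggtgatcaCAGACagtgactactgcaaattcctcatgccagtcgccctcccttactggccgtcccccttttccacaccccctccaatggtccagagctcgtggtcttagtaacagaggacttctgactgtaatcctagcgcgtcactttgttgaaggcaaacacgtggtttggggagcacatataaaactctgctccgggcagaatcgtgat
Id2, chr12:25096093-25096342 (- strand): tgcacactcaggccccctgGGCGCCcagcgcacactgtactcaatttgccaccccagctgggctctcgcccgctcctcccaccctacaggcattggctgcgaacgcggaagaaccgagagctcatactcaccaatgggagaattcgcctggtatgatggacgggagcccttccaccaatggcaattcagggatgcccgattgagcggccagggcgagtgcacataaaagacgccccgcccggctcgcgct
Id3, chr4:136143572-136143821 (+ strand): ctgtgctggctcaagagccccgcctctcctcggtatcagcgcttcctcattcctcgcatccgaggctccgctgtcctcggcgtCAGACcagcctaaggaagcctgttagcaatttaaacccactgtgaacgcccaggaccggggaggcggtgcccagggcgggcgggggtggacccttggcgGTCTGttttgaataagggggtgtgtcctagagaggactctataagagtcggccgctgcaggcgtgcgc
Id4, chr13:48260866-48261115 (+ strand): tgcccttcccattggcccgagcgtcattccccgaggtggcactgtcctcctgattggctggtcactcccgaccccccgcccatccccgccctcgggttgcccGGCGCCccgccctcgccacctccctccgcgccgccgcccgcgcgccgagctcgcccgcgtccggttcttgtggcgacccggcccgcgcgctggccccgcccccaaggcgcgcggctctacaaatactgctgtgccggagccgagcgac
CAGAC was found in 42.2% of all 32851 promoters of this length, on either strand, and in 13 of the 32 promoters that the table holds for 27 member genes (40.6%). GGCGCC was found in 9.59% of all promoters and in 9 of the 32 (28.1%). GGAGCC was found in 26% of all promoters and in 19 of the 32 (59.4%). Matches of different motifs can share at most 2 letters. The median GC content was 67.4% in the member promoters and 52.4% in all of them, and the part of this difference in the shares of the GC-rich motifs was not tested. The palindrome GTCTAGAC, with 0.167% of all promoters, and the full CREB site TGACGTCA, with 1.55%, were in 0 of the 32. A match is a run of letters and not a measured site.

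The BMP ligand group of the list, in which the protease Bmp1 is counted, was higher in 9 of 12 probe sets. Its median log2 fold change was 0.060, and none passed. The smallest p belonged to Bmp5 (1421282_at), at -0.017, 0.017 and 0.51 in p300+/- 1, 2 and 3 and at -0.19, 0.021 and -0.18 in wild-type 1, 2 and 3. Its p300+/- 3 value stood high, and p300+/- 1 and 2 both lay below wild-type 2. The log2 fold change was 0.29 ± 0.17 (SE; unadjusted p = 0.129, limma), while the other probe sets of Bmp5 gave 0.016 and -0.03. Without p300+/- 3 the value of 1421282_at fell to 0.12. Bmp6, a ligand that vessel cells make, lay at 0.072, -0.072 and 0.14 in p300+/- 1, 2 and 3 and at -0.27, -0.55 and 0.077 in wild-type 1, 2 and 3. Wild-type 2 was lowest and wild-type 3 lay within the p300+/- values. The log2 fold change was 0.29 ± 0.17 (SE) and 0.14 without wild-type 2. Without wild-type 3 it was 0.46 (unadjusted p = 0.0222, limma) and did not pass. Bmp7 was low in wild-type 2, with values there of -0.38, -0.48 and -0.14.

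Wild-type 2 also stood low in markers of the choroid plexus, the epithelium beside the hippocampus that makes cerebrospinal fluid. The mean of 16 measured choroid plexus markers was -2.13 there, against -0.15 and 0.24 in wild-type 1 and 3 and 0.11, -0.087 and 0.35 in p300+/- 1, 2 and 3, and all 16 had higher means in p300+/- pools. The part of this tissue in the values of Bmp6 and Bmp7 was not tested. The Bmp7 log2 fold changes were 0.19 ± 0.21, 0.15 ± 0.22 and -0.15 ± 0.16 (SE), and without wild-type 2 the first fell to 0.0089 and the second to -0.0084. The third, 1435479_at, was lowest in p300+/- 3, at -0.19, and moved to -0.26 without wild-type 2. Bmp4, the ligand most studied in dentate stem cells, was at 0.23 ± 0.15, with p300+/- values of 0.28, -0.085 and 0.14 and wild-type values of -0.22, -0.22 and 0.085. Its p300+/- 2 value lay at the middle of the wild-type range. Bmp2 was at 0.09 ± 0.12. Bmp1 is no ligand of this family in spite of its name but a protease that cleaves procollagen and chordin, and its probe sets gave 0.0082, 0.031 and -0.13. They are counted in the BMP ligand group above.

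Activin subunits and antagonists showed no difference that passed. Inhba, the activin A subunit that neuronal activity induces, was at -0.23 ± 0.20 (SE) by 1458291_at, with p300+/- values of 0.15, -0.53 and -0.12 and wild-type values of 0.12, 0.24 and -0.17. The genotypes overlapped with p300+/- 2 lowest, and without that array the log2 fold change was -0.043. Its other probe set gave -0.011 ± 0.15, and those of Inhbb gave -0.084 and 0.028. Follistatin (Fst), which traps activin, lay at -0.51, 0.099 and 0.15 in p300+/- 1, 2 and 3 and at -0.19, 0.41 and -0.099 in wild-type 1, 2 and 3 by 1434458_at. Here p300+/- 1 was lowest and wild-type 2 highest, with overlap, and the log2 fold change was -0.12 ± 0.23 (SE). The second Fst probe set gave 0.036 ± 0.19. Noggin (Nog), which binds BMP and keeps it from its receptors, was at -0.044 ± 0.13 (95% interval -0.35 to 0.26), and Chordin (Chrd), another BMP antagonist, was at 0.072 ± 0.20.

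TGF-beta receptors had higher values in 6 of 8 probe sets, with a median log2 fold change of 0.12, and none passed. Tgfbr1, the type I kinase for TGF-beta, held the largest positive value of the route. Its probe set 1420893_a_at lay at 0.23, 0.53 and -0.047 in p300+/- 1, 2 and 3 and at 0.047, -0.58 and -0.12 in wild-type 1, 2 and 3. The p300+/- 2 array was highest and wild-type 2 lowest, and p300+/- 3 lay below wild-type 1. The log2 fold change was 0.45 ± 0.21 (SE; 95% interval -0.036 to 0.95; unadjusted p = 0.0649, adjusted p = 0.9999, limma), or 1.37 times the wild-type level. Without wild-type 2 it was 0.27. Another Tgfbr1 probe set, 1420894_at, was at 1.29 in p300+/- 2 and between -0.24 and 0.30 in the other 5 arrays, so its log2 fold change of 0.32 ± 0.37 (SE) became -0.14 without that array. The brightest, 1420895_at, gave -0.20 ± 0.19 (SE) with 0.52 in wild-type 2, and -0.024 without that array. For Tgfbr2, the type II kinase, values were -0.055, 0.17 and 0.065, and for Tgfbr3 (betaglycan), the co-receptor that presents TGF-beta2, 0.19 and 0.062.

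BMP and activin receptors were the only group with probe sets whose genotypes did not overlap, 3 of 22 (background 5.39%), and they went in both directions. Bmpr2, the type II BMP receptor, was lower without overlap by 2 of its 3 probe sets. The bright 1434310_at lay at -0.11, -0.023 and -0.22 in p300+/- 1, 2 and 3 and at 0.023, 0.066 and 0.064 in wild-type 1, 2 and 3. All p300+/- arrays were below all wild-type arrays, by little, since p300+/- 2 and wild-type 1 were 0.046 apart. The group means were -0.12 ± 0.10 in p300+/- and 0.051 ± 0.024 in wild-type (SD, n = 3), a log2 fold change of -0.17 ± 0.11 (SE; 95% interval -0.42 to 0.09; unadjusted p = 0.169, limma). The second, 1441652_at, lay at -0.12, -0.14 and -0.003 in p300+/- 1, 2 and 3 and at 0.042, 0.31 and 0.003 in wild-type 1, 2 and 3, again without overlap, and gave -0.20 ± 0.13 (SE; unadjusted p = 0.151, limma). Here p300+/- 3 and wild-type 3 were 0.0060 apart. With wild-type 2 left out these were -0.16 and -0.11. The third Bmpr2 probe set, 1419616_at, was at -0.55 in wild-type 2 and gave -0.00041 ± 0.21 (SE). Its sign depended on the array left out. It was at -0.012, -0.066 and 0.076 without p300+/- 1, 2 and 3. Without wild-type 1, 2 and 3 it was at 0.11, -0.24 and 0.13. Averaged over its 3 probe sets, Bmpr2 was at -0.12 ± 0.10 (SE). The genotypes then overlapped, with wild-type 2 at -0.059 and p300+/- 2 at -0.036. Acvr2b, a type II receptor for activins, was higher by 1440525_at, at 0.056, 0.033 and 0.039 in p300+/- 1, 2 and 3 and at -0.095, -0.033 and -0.19 in wild-type 1, 2 and 3. All 3 p300+/- values lay above the wild-type values, and the log2 fold change was 0.15 ± 0.11 (SE; unadjusted p = 0.205, limma). Its other probe sets gave 0.078 and -0.091, the last with 0.40, -0.66 and 0.43 in wild-type 1, 2 and 3. Without wild-type 2 that last probe set, 1419140_at, was at -0.45 (unadjusted p = 0.00721, limma) and did not pass.

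With all 6 arrays the smallest p among these receptors was that of Bmpr1b (1422872_at), a type I BMP receptor. It lay at -0.031, 0.15 and 0.14 in p300+/- 1, 2 and 3 and at 0.031, -0.40 and -0.25 in wild-type 1, 2 and 3. Wild-type 2 and 3 were low, while wild-type 1 overlapped the p300+/- arrays, and the log2 fold change was 0.29 ± 0.14 (SE; unadjusted p = 0.0787, limma). The other bright Bmpr1b probe set, 1437312_at, was at -0.22 ± 0.20 (SE) with 0.69 in wild-type 2, and without that array it was at 0.011. The dim 1443720_s_at gave 0.045. Bmpr1a, the type I receptor that neural stem cells carry, was read by 6 probe sets, from -0.22 (1451729_at, -0.028 without wild-type 2) to 0.16. The BMP type I receptor Acvr1 gave 0.20, -0.005 and -0.046, the activin type I receptor Acvr1b 0.21 and 0.053, and Acvr2a -0.12 and -0.018.

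Among the Smads that receptors activate, and Smad4, 8 of 14 probe sets were higher and 6 lower, with a median log2 fold change of 0.018. Smad1, which carries BMP signals, was lower by all 3 probe sets, at -0.23 ± 0.14, -0.26 ± 0.15 and -0.074 ± 0.19 (SE). The first of them, 1459843_s_at, had the smallest p of the group (unadjusted p = 0.137, limma) and lay at 0.0019, -0.08 and -0.048 in p300+/- 1, 2 and 3 and at 0.14, 0.42 and -0.0019 in wild-type 1, 2 and 3. Wild-type 2 was the high array there, and wild-type 3 lay within the p300+/- values. Without wild-type 2 the log2 fold change was -0.11. The third, 1448208_at, turned to 0.092 without wild-type 2 and to 0.0023 without p300+/- 2. Smad5, the other BMP Smad of the list, was higher by all 3, at 0.24 ± 0.22, 0.12 ± 0.20 and 0.057 ± 0.15 (SE). The first, 1421047_at, was at 0.49 without p300+/- 3 and at 0.06 without p300+/- 2, and the second, 1451873_a_at, at 0.31 and -0.012. Without p300+/- 3 and wild-type 2 together they were at 0.46 and 0.40 (unadjusted p = 0.0256 and 0.0369, limma). The third Smad5 probe set, 1433641_at, was at 0.0013 without p300+/- 1 and at -0.018 without wild-type 3. Neither Smad1 nor Smad5 passed the adjusted threshold in any of these fits.

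Smad3, the partner of p300 in TGF-beta responses, varied between arrays more than between genotypes. By 1450472_s_at it lay at -0.094, 0.59 and -0.86 in p300+/- 1, 2 and 3 and at 0.094, -0.88 and 0.42 in wild-type 1, 2 and 3. The low arrays were p300+/- 3 and wild-type 2, each more than 0.7 below the other arrays, and the log2 fold change was 0.0045 ± 0.43 (SE), or -0.0052 without them. The other Smad3 probe sets gave 0.21 ± 0.30 (SE; 0.05 without wild-type 2 and 0.45 without p300+/- 3) and -0.043 ± 0.15. Smad4, the shared partner of all activated Smads, was read by 3 bright probe sets, and each was lowest in p300+/- 3 and wild-type 2. For 1422485_at the p300+/- values were 0.099, 0.10 and -0.67 and the wild-type values -0.099, -0.57 and 0.11. The Smad4 log2 fold changes were 0.032 ± 0.26, -0.0031 ± 0.17 and -0.051 ± 0.19 (SE), so genotype means lay close while single pools differed. Smad2 was steady, at 0.031 ± 0.10 by its bright probe set (95% interval -0.21 to 0.27), whose 6 values ran from -0.055 to 0.03, and at 0.093 ± 0.15 by the other.

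Inhibitory Smads, which are induced by the pathway and block it, did not differ past the test. Smad6 was at -0.0011, 0.0011 and 0.10 in p300+/- 1, 2 and 3 and at -0.40, -0.04 and 0.38 in wild-type 1, 2 and 3. The wild-type arrays spanned the p300+/- arrays on both sides, and the log2 fold change was 0.053 ± 0.20 (SE). Smad7 gave 0.044 ± 0.14 and, by 1443771_x_at, -0.097 ± 0.16, with p300+/- values of -0.13, 0.25 and -0.29 and wild-type values of -0.072, 0.12 and 0.072.

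The regulators of Smads held the smallest p of the route. Smurf1, a ubiquitin ligase that marks BMP Smads and receptors for breakdown, lay by 1428396_at at 0.65, 0.34 and -0.064 in p300+/- 1, 2 and 3 and at -0.16, -0.32 and 0.064 in wild-type 1, 2 and 3. The p300+/- 1 and 2 arrays were the highest, while p300+/- 3 lay below wild-type 3. The means were 0.31 ± 0.36 in p300+/- and -0.14 ± 0.19 in wild-type (SD, n = 3), and the log2 fold change was 0.45 ± 0.20 (SE; 95% interval -0.016 to 0.92; unadjusted p = 0.0563, adjusted p = 0.9999, limma), 1.37 times the wild-type level. With an array left out it ran from 0.28 (without p300+/- 1) to 0.64 (without p300+/- 3, unadjusted p = 0.00908, limma). The second Smurf1 probe set gave 0.018 ± 0.20. Smurf2 gave 0.066, 0.14 and -0.042. Ski, a corepressor that binds Smads in place of p300, had the lowest single value of the list. Its bright 1429192_at was at 0.13, -0.019 and -0.54 in p300+/- 1, 2 and 3 and at 0.019, -1.35 and 0.25 in wild-type 1, 2 and 3. Wild-type 2 was far below every other array and p300+/- 3 was next, and the log2 fold change of 0.22 ± 0.41 (SE) turned to -0.27 without wild-type 2. The other Ski probe set gave 0.078 ± 0.13, and Skil, its relative, 0.24 ± 0.18 and -0.13 ± 0.17.

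Id genes encode helix-loop-helix proteins without a DNA-binding region and are the classic transcriptional targets of BMP. Of their 8 probe sets 4 were higher and 4 lower, with a median log2 fold change of 0.023. Id1, read by a single bright probe set, lay at 0.11, -0.38 and 0.54 in p300+/- 1, 2 and 3 and at -0.047, 0.047 and -0.35 in wild-type 1, 2 and 3. Its highest array was p300+/- 3 and its lowest p300+/- 2, so pools of the same genotype differed more than the genotypes did. The log2 fold change was 0.21 ± 0.24 (SE; 95% interval -0.35 to 0.76), and -0.020 without p300+/- 3. Id3 lay at 0.083, -0.18 and 0.13 in p300+/- 1, 2 and 3 and at -0.083, -0.14 and 0.088 in wild-type 1, 2 and 3 and gave 0.055 ± 0.13, with full overlap.

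Id2, which neurons also make, was high in p300+/- 3 and wild-type 2 by both bright probe sets. By 1422537_a_at it lay at -0.088, -0.32 and 0.79 in p300+/- 1, 2 and 3 and at 0.088, 0.69 and -0.37 in wild-type 1, 2 and 3, and by 1435176_a_at at -0.56, -0.041 and 0.53 in p300+/- 1, 2 and 3 and at -0.052, 0.70 and 0.041 in wild-type 1, 2 and 3. The log2 fold changes were -0.01 ± 0.35 and -0.25 ± 0.31 (SE). Thus Id2 ran opposite to Tgfb2, Smad3, Smad4 and Ski over the same arrays. Its dimmer probe set, 1453596_at, did not show this, at 0.14, -0.079 and -0.11 in p300+/- 1, 2 and 3 and at 0.24, -0.096 and 0.079 in wild-type 1, 2 and 3, with a log2 fold change of -0.091 ± 0.14. Id4, which keeps hippocampal stem cells quiet, gave 0.15 ± 0.12, 0.12 ± 0.25 and -0.034 ± 0.15 (SE). For 1423259_at the values were -0.039, 0.15 and 0.11 in p300+/- and 0.039, -0.13 and -0.12 in wild-type, overlapping at wild-type 1. For 1423260_at they were 0.28, -0.024 and 0.024 and 0.57, -0.38 and -0.28, with wild-type 1 highest, and for 1450928_at they were -0.085, 0.29 and -0.059 and 0.027, -0.027 and 0.24.

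Array by array, pools of the same genotype often differed by more than the genotype means did. Wild-type 2 was the lowest or the highest array in 55% of the 91 probe sets, against 45.6% of all probe sets, and wild-type 1 in 19.8%, against 24.1%. The p300+/- 2 array was highest in 25 members and lowest in 11. The 2 lowest arrays were p300+/- 3 and wild-type 2 in 22 members (24.2%, against 15.8% of all probe sets), and the 2 highest in 13 (14.3%, against 21.3%). A range over arrays of more than 1 log2 unit was found in 9 members (9.89%, against 9.49% of all probe sets). Some marker means moved over the same arrays and others did not. The 15 hippocampal neuron markers averaged -0.34 in p300+/- 3 and -0.37 in wild-type 2 and from 0.016 to 0.13 in the other arrays. Of them Tdo2 (0.17 and 0.63), Neurod6 (0.12 and 0.20) and Bok (0.21 and 0.084) were above 0 in these arrays, and the rest were below 0. Microglia markers averaged 0.26 and 0.13 in p300+/- 3 and wild-type 2 and from -0.12 to -0.020 in the others. The microglia gene Cx3cr1 went the other way, at -0.82 and -0.65. Csf1r was at 0.030 and -0.0024 and Itgam at 0.45 and -0.14, and the other microglia markers were above 0 in both. Erythroid and blood markers averaged 0.51 and 0.15 in p300+/- 3 and wild-type 2, with 0.11 in p300+/- 2 and from -0.20 to -0.087 in the rest. Of them Alas2 (0.86 and 0.13), S100a8 (0.85 and 0.20) and S100a9 (0.80 and 0.36) were above 0 in both p300+/- 3 and wild-type 2. The hemoglobin genes Hba-a1 (-0.099 and 0.18) and Hba-a2 (-0.0025 and 0.051) were not, and Ngp was at 0.65 and -0.051. The mean of 20 vascular and meningeal markers ran from -0.10 to 0.15, with members that went both ways. In p300+/- 3 and wild-type 2 the endothelial genes Kdr (-0.57 and -0.26), Flt1 (-0.23 and -0.41), Tek (-0.33 and -0.27) and Pecam1 (-0.27 and -0.35) and the pericyte gene Rgs5 (-0.43 and -0.40) were below 0. The fibroblast genes Lum (0.62 and 0.36) and Slc6a13 (0.42 and 0.19) were above 0 in the same arrays. These genes were picked after their values were seen, and other genes of the same list did not all follow them. In p300+/- 3 and wild-type 2 Cldn5 was at 0.094 and -0.30, Vtn at 0.16 and 0.012, and Kcnj8 at -0.088 and 0.23. Foxc1 was at -0.093 and 0.063 and Aldh1a2 at 0.21 and -0.030. Below 0 in both arrays were also Pdgfrb (-0.15 and -0.21) and Abcc9 (-0.34 and -0.048). Above 0 in both were also Col1a1 (0.39 and 0.023), Col3a1 (0.085 and 0.30), Acta2 (0.075 and 0.13), Tagln (0.48 and 0.0049) and Dcn (0.096 and 0.017). Col1a2 was at 0.20 and -0.014. The mean of 11 astrocyte markers ran from -0.053 to 0.086, with members that went both ways. In p300+/- 3 and wild-type 2 Gjb6 was at 0.82 and 0.72 and S100b at 0.28 and 0.075. Slc1a3 was at -0.20 and -0.11 and Fgfr3 at -0.029 and -0.55 in these arrays. Oligodendrocyte markers averaged 0.087 in p300+/- 3 but -0.21 in wild-type 2, from -0.076 to 0.053 in the others, and were 0.15 higher in p300+/- by genotype means. Interneuron markers averaged 0.23 in p300+/- 3, 0.061 in wild-type 2 and from -0.039 to 0.10 in the others. In p300+/- 3 and wild-type 2 Vip (0.88 and 0.76), Pvalb (0.66 and 0.74) and Npy (0.47 and 0.080) were above 0. So were Slc32a1 (0.28 and 0.035) and Reln (0.015 and 0.19). Gad1 (-0.059 and -0.27) and Gad2 (-0.43 and -0.48) were below 0 in both. Sst (0.12 and -0.20) and Lhx6 (0.098 and -0.29) differed in sign. The part of these marker groups in the values of Tgfb2, Smad3, Smad4, Ski and Id2 was not tested. Without p300+/- 3 and wild-type 2, leaving 2 arrays per genotype, 5 members (5.49%, against 2.39% of all probe sets) had an unadjusted p under 0.05 and none passed. They were the Smad5 probe sets above, Tgfbr1 1420893_a_at at 0.42, Smurf1 1428396_at at 0.55 and Acvr2b 1419140_at at -0.48. In the same fit the genotypes did not overlap in 31.9% of the members and 28.3% of all probe sets.

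**Figure D3:**
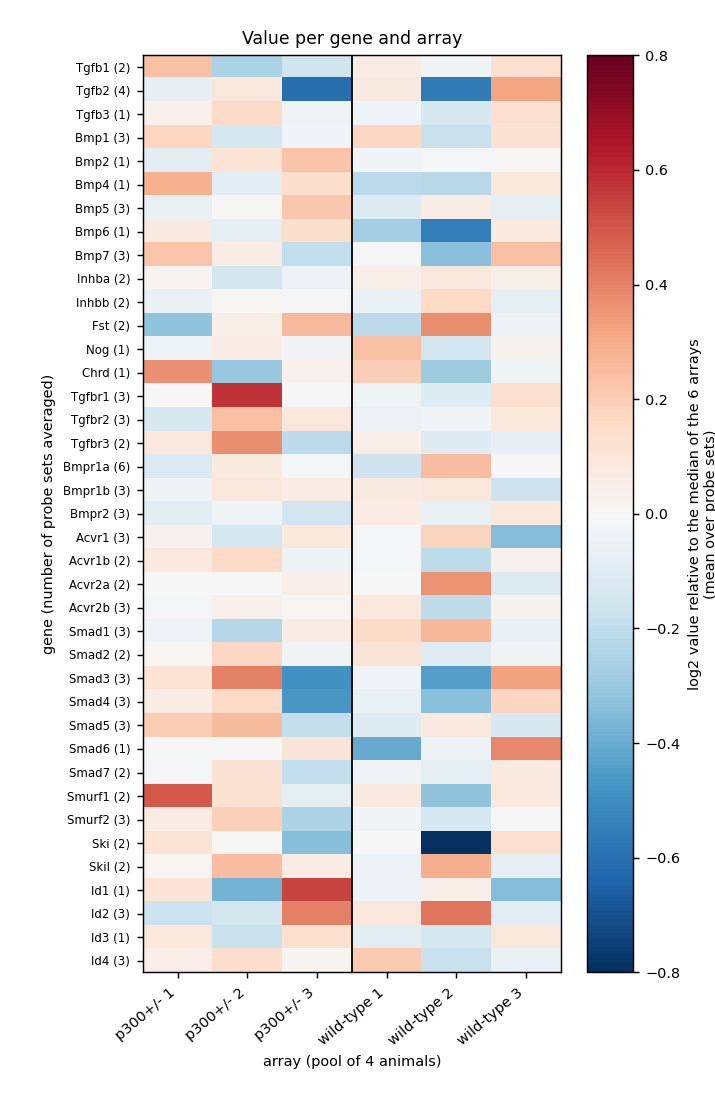
Heat map of 39 genes (y axis, with the number of probe sets averaged) over the 6 arrays (x axis), coloured by the log2 value relative to the median of the arrays. Tgfb2, Smad3, Smad4 and Ski are low and Id2 is high in p300+/- 3 and wild-type 2.

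**Figure D4:**
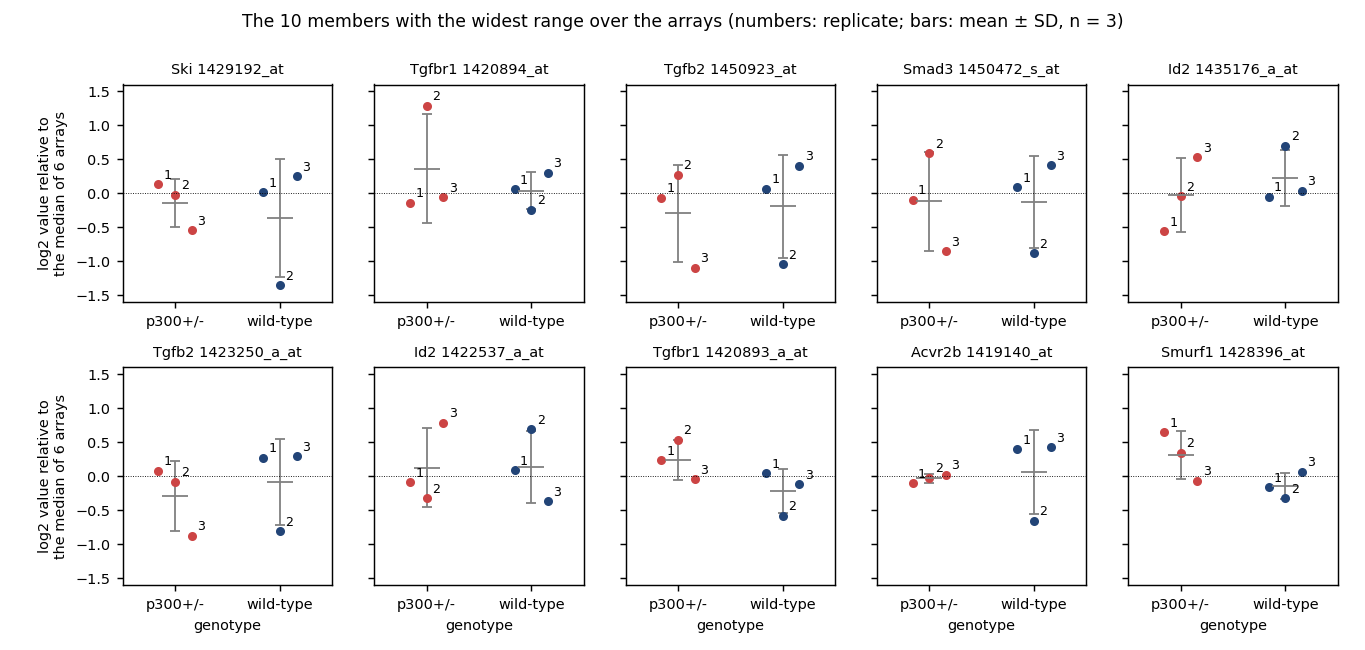
Values of the 10 member probe sets with the widest range (y axis, log2 relative to the median of 6 arrays) by genotype (x axis), with a numbered point per array and bars for the mean ± SD of 3 arrays. Tgfb2 1450923_at lies at -1.10 in p300+/- 3 and -1.05 in wild-type 2, and Id2 1422537_a_at at 0.79 and 0.69.

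Probe sets of 1 gene often disagreed. Of 30 member genes with several probe sets, 12 had all of them on the same side of 0. When the probe sets of a gene were averaged, 25 of 39 genes were higher in p300+/-, with a median log2 fold change of 0.055, beside 0.019 over 18193 genes. The smallest unadjusted p was then 0.108 (limma), for Bmp6, and 0 genes passed. Only Inhba did not overlap by its gene mean (1 of 39, 2.56%, against 4.72% of all genes), at -0.12 ± 0.10 (SE).

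The other genes of the pathway, 87 measured of 97 listed, likewise held no probe set that passed. Of 195 probe sets 97 were higher and 98 lower, 3 had an unadjusted p under 0.05 (1.54%, against 1.22% of all probe sets), and 7 did not overlap (3.59%, against 5.39%). Acvr1c, the type I receptor ALK7 for activin B and nodal, had the smallest p. By 1443225_at it lay at -0.40, -0.33 and -0.086 in p300+/- 1, 2 and 3 and at 0.23, 0.086 and 0.19 in wild-type 1, 2 and 3. All p300+/- arrays were below all wild-type arrays, with a log2 fold change of -0.44 ± 0.13 (SE; 95% interval -0.73 to -0.14; unadjusted p = 0.00957, adjusted p = 0.9999, limma). Its other probe sets gave -0.37 and, with the opposite sign, 0.22. Decorin (Dcn), a proteoglycan that binds TGF-beta, was higher without overlap by 1441506_at, at 0.37 ± 0.15 (SE), with p300+/- values of 0.051, 0.25 and 0.15 and wild-type values of -0.48, -0.051 and -0.12. Its brighter probe set, 1449368_at, had the opposite sign at -0.18 ± 0.15 (SE), and the gene mean gave 0.096. Dcn is also a marker of meningeal cells, whose markers are given above. Zeb1, a transcription factor that binds Smads, was the third with an unadjusted p under 0.05, at -0.80 ± 0.33 by 1446127_at, where the genotypes overlapped, and it is named after its value was seen. Its other probe sets gave -0.053, 0.15 and 0.077. Without overlap lay also 1 probe set each of Itgav, an integrin subunit that frees latent TGF-beta, at -0.23 ± 0.13, the cell-cycle inhibitor Cdkn1a, a Smad target, at 0.19 ± 0.12, and thrombospondin 1 (Thbs1), an activator of latent TGF-beta, at 0.15 ± 0.12 (SE) by a dim probe set. The other probe sets gave 0.42, 0.015, -0.09 and 0.032 for Itgav, 0.10 for Cdkn1a and -0.048 for Thbs1.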

How the data were processed

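RNA of pooled hippocampi was read on 6 arrays, 3 per genotype. Per the labels' protocols, the authors processed and normalized the data in GeneSpring GX. Its version, the probe summarization and the normalization method are not stated in the labels. The deposited log2 values are relative to each probe set's median (row medians 0 within 5e-07). The log base is not stated and was taken as 2, so fold changes and intervals in fold depend on it. Differences between arrays lay on steps of single-precision numbers, which gave a level class per probe set (98.6% right on 18116 simulated probe sets).

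After 64 control probe sets were left out, 45037 were fitted with limma 3.58.1 (lmFit, eBayes) in R 4.3.3, p300+/- minus wild-type, two-sided, without covariates or a filter, with Benjamini-Hochberg adjustment over all of them. The fit was tested on simulated data. Genes were named from the platform annotation, with symbols updated through RefSeq (GRCm38.p6). No coordinates come from the deposited values.

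Named were members at an unadjusted p under 0.05 or without overlap, the smallest p per role, all Id probe sets, the 10 widest over arrays, Ep300, and of other pathway genes up to 3 per direction without overlap, by p. The remaining members are given by value. Members and lists were chosen with earlier results of these data known. The marker means use 1 value per gene. Other settings were quantile normalization, median centring, robust eBayes (a trend needs levels and was not used), weighted arrays, a block on the replicate number, no _x_at or _s_at probe sets, no dim class, a threshold of 0.1, gene means and arrays left out. The number of arrays limits the precision. Figures were drawn with matplotlib 3.10.9.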

Additional observations from a re-analysis of the deposited data

How the results depend on the processing

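No member, other pathway gene or any other probe set passed under any of the alternatives run, and the smallest adjusted p was 0.974 (limma), without wild-type 2. The count of members at an unadjusted p under 0.05 (limma), 0 as reported, was 2 with array weights (2.2%, against 3.62% of all probe sets). It was 5 without p300+/- 3 and wild-type 2 together (5.5%, against 2.39%). There were 3 without p300+/- 3 and 3 without wild-type 1 (3.3%, against 1.43% and 1.06%). Without wild-type 3 there were 2 (2.2%, against 1.45%). Leaving out p300+/- 1, p300+/- 2 or wild-type 2 gave 1 (1.1%, against 2.43%, 1.55% and 2.56%). With an array left out, 12.1% to 18.1% of all probe sets did not overlap because fewer arrays must be apart, and members numbered from 9 to 18. Without p300+/- 1, 2 and 3 there were 11 (12.1%, against 13.2%), 9 (9.89%, against 15.1%) and 18 (19.8%, against 13.2%). Without wild-type 1, 2 and 3 there were 13 (14.3%, against 12.1%), 14 (15.4%, against 18.1%) and 9 (9.89%, against 12.9%). Members without overlap numbered 29 without p300+/- 3 and wild-type 2 (31.9%, against 28.3%). With gene means it was 1 of 39 (2.56%, against 4.72%). The median log2 fold change of the members, 0.021 as reported, ran from -0.012 (without p300+/- 2) to 0.070 (without p300+/- 3) and was 0.055 with gene means.

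Of the 32 named probe sets, 17 kept their direction in every alternative run and 15 did not, and the cause was not tested. Gene means, which also hold the other probe sets of a gene, were among these alternatives. Itgav 1452784_at counted as changed only by its gene mean and ran from -0.32 to -0.12 with an array left out. With an array left out the ranges were -0.45 to 0.095 for Acvr2b 1419140_at, -0.24 to 0.087 for Fst 1434458_at, -0.020 to 0.44 for Id1, -0.34 to 0.27 and -0.53 to 0.016 for Id2 1422537_a_at and 1435176_a_at, -0.0040 to 0.15 for Id3, -0.052 to 0.42 and -0.15 to 0.047 for Id4 1423260_at and 1450928_at, -0.28 to 0.53 for Ski 1429192_at, -0.37 to 0.37 for Smad3 1450472_s_at, -0.25 to 0.018 for Smad7 1443771_x_at, -0.58 to 0.081 and -0.53 to 0.30 for Tgfb2 1423250_a_at and 1450923_at, and -0.14 to 0.57 for Tgfbr1 1420894_at. Quantile normalization turned Smad3 1450472_s_at to -0.075. Array weights turned it to -0.068, Smad7 1443771_x_at to 0.0046, Id4 1423260_at to -0.19 and Ski 1429192_at to -0.0076. Without p300+/- 3 and wild-type 2 together Smad7 was at 0.059, Id3 at -0.051, Id4 1423260_at at -0.018, Ski at -0.076 and Smad3 at -0.0052. With gene means Id4 was at 0.078, Acvr2b at 0.045 and Itgav at 0.030.

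With the replicate number as a block, 0 probe sets passed and 604 had an unadjusted p under 0.05, against 550 without the block. The deviations of same-numbered arrays from their genotype means correlated at 0.61, -0.23 and -0.47, and p300+/- 3 correlated best with wild-type 2. Deviations within a genotype sum to 0, so these correlations depend on one another. They cannot tell whether the numbers pair samples. Depth on an array is its signal over background, which centred values do not hold, and the dim members of the lowest class are the least certain.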
